A study of Mus musculus with 16 samples.

Results

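Actomyosin is the machinery of myosin motors pulling on actin filaments, and smooth muscle contractile genes encode the forms of it that smooth muscle cells and myofibroblasts make in quantity. A list of 39 such genes was followed in cells grown from the mouse coronal suture, where the frontal bone of the skull meets the parietal bone at a strip of fibrous tissue. Of the 39 genes, 37 had a probe set that the platform annotation gave to a single gene, out of 22180 such genes on the array, and the brightest of these probe sets stood for each gene. All 37 passed the filter on dim probe sets and were among the 13453 genes tested. Ilk and Lims2 are not analysed here.

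The cells came from 2 litters of C57BL6 mice and were grown separately for each sex and for each of 2 genotypes, heterozygous for Twist1 (Twist1+/-) and wild type. Twist1 is a basic helix-loop-helix transcription factor whose loss of a copy leads to early fusion of this suture in mice and people. Each genotype was grown with thyroxine, the main thyroid hormone in the circulation (log10 of its molar concentration, -6), and in control DMEM without it, for 3 days and for 7 days. Each of the resulting 8 groups had 2 arrays, 1 of female and 1 of male cells, so that 4 cultures of a genotype and sex gave all 16 arrays. The allele behind Twist1+/-, the age of the animals and whether wells were pooled are not stated in the sources used here.

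Contraction starts when a kinase phosphorylates the regulatory light chain of myosin II, whose heavy chains then pull on actin filaments wrapped in tropomyosin, calponin and caldesmon. Alpha-actinins and filamins crosslink the filaments, and talin, vinculin, zyxin and parvin tie them to integrins at focal adhesions. Many of these genes are classical targets of serum response factor (SRF), which binds the CArG box with the cofactors myocardin or MRTF, and some also of the TEAD factors that work with YAP. Mesenchymal cells spread on a culture dish build stress fibres from the same proteins.

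The CArG box stood in the 250 bases before the annotated start of 5 of the 37 promoters that the RefSeq table (build GRCm38.p6) holds for 32 of the members. That is 13.51% of the members' promoters, against 1.24% of 13333 promoters of the tested genes and 1.47% of all 32851 promoters in the table. Both strands were searched for the 10-letter CArG consensus, and the capitals below mark the matches. The regions are chr8:123894776-123895025 on the minus strand for Acta1, chr10:79988350-79988599 on the plus strand for Cnn2, chr2:156775214-156775463 on the plus strand for Myl9, chr17:46556163-46556412 on the minus strand for Srf and chr14:20929148-20929397 on the plus strand for Vcl. They are shown because they carry the motif. The list holds textbook SRF targets in part, so the members' share is not independent of how the list was made.
Acta1: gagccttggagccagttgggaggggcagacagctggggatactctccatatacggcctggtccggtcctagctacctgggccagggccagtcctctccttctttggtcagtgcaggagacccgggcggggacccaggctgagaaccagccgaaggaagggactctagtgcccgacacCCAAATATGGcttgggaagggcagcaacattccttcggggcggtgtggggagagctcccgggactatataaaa
Cnn2: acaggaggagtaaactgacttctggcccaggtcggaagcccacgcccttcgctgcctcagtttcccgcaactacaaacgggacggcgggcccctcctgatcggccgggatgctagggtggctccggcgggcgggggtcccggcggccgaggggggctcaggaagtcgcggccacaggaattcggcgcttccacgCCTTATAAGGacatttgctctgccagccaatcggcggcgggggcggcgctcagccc
Myl9: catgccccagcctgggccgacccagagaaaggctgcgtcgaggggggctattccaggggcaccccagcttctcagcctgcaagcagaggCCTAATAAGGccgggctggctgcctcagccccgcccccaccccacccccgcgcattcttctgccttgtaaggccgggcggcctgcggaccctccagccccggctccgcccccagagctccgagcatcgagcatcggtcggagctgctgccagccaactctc
Srf: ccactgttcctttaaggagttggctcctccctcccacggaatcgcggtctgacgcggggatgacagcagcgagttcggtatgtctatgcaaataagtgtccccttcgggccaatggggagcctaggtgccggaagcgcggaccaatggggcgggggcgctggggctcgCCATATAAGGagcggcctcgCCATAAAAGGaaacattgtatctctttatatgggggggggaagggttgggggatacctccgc
Vcl: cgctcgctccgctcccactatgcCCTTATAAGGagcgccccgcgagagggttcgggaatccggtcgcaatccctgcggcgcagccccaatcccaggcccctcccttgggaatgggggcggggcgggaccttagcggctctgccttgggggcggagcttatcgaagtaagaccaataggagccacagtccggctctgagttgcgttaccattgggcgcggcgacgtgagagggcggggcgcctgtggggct
Srf itself holds 2 matches, beginning 82 and 62 bases before its start, while the matches begin 73, 56, 161 and 227 bases before the starts of Acta1, Cnn2, Myl9 and Vcl. The TEAD motif GGAATG, searched on both strands, stood in 13 of the members' promoters (35.14%), against 10.55% of the tested genes' promoters. None of the printed CArG matches overlapped a GGAATG match. A match describes the letters of this window only. No promoter of the RefSeq table was assigned to Actg2, Tagln, Myh11, Myocd and Parva, so theirs were not searched for either motif.

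The arrays carry log2 RMA values, so a difference of 1 is a change of 2-fold, and a level of one probe set cannot be set against that of another. The wild-type male culture stood apart. Mean log2 levels of 9 suture mesenchyme markers ran from 8.10 to 8.25 in its arrays and from 8.75 to 9.24 in the other cultures, and those of 12 macrophage and osteoclast markers at 3 days from 9.31 to 9.33, against 7.74 to 8.52. Single suture mesenchyme markers averaged from 3.87 (Sp7) to 12.42 (Col1a1) over all arrays, and mural cell markers from 2.13 (Higd1b) to 6.62 (Cspg4). Array means ran from 4.55 to 4.97 for the 7 vascular mural cell markers and from 3.94 to 4.20 for the 13 skeletal muscle markers. Those of the 5 endothelial markers ran from 3.76 to 4.13, with 3.905 as the filter's level. Twist1 differed by 0.32 ± 0.27 between cells labelled Twist1+/- and wild type and did not pass the test (limma, adjusted p = 0.937). Its mean was not lower in the cells labelled Twist1+/-, and without the allele this level is no check of the labels. The wild-type arrays ran from 6.07 to 7.70 and so enclosed the Twist1+/- arrays, from 6.51 to 7.55. In control medium at 3 days, for one, the 2 wild-type arrays had 6.35 and 7.70.

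The first comparison asked how the contractile genes stood after 7 days of culture against 3 days. Of the 37 members, 29 fell and 0 rose (limma, adjusted p under 0.05), where 8.69% of all tested genes fell and 9.84% rose. The median difference of the members was -0.46, against -0.02 for all tested genes, and 35 of 37 members were lower at 7 days. The largest fall was that of Cnn1, to 0.46 of its 3-day level on the linear scale, and the adjusted p of Jph2, 0.000153, was the lowest among the members. All falls below are 7 days minus 3 days, averaged over both genotypes and both media, with the standard error of the fit. In bulk RNA, fewer cells of a type and less RNA per cell cannot be told apart.

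All 3 muscle actins fell, with a median difference of -0.55. Actg2, the gamma-actin of enteric smooth muscle, measured 8.29, 8.84 and 9.71 at 7 days (lowest, median and highest of 8 arrays), against 9.30, 9.70 and 10.40 at 3 days. The ranges overlapped through the wild-type male arrays, which were the highest at 7 days. Actg2 fell by 0.86 ± 0.17 (adjusted p = 0.00435), with -0.92 and -0.88 in the Twist1+/- female and male cultures and -1.02 and -0.63 in the wild-type female and male cultures. Acta1, the skeletal muscle alpha-actin, measured 6.03, 6.65 and 7.57 at 7 days, against 6.68, 7.10 and 7.99 at 3 days, and fell by 0.55 ± 0.15 (adjusted p = 0.0245). Its differences were -0.61 and -0.36 in the Twist1+/- female and male cultures and -0.61 and -0.62 in the wild-type female and male cultures. Here too the groups overlapped, and Acta1 passed in only 6 of the 16 fits that each left out 1 array, with differences of -0.43 or below in all alternatives. Acta2, the smooth muscle alpha-actin of myofibroblasts, had levels of 12.39, 12.57 and 12.84 at 7 days, against 12.84, 12.99 and 13.15 at 3 days. Only the low end of the 3-day values touched the high end of the 7-day ones, which were again the wild-type male arrays, and Acta2 fell by 0.41 ± 0.07 (adjusted p = 0.00198), with -0.54 and -0.39 in the Twist1+/- female and male cultures and -0.50 and -0.20 in the wild-type female and male cultures. The coding sequences of these actins are close to each other, the probe positions were not used here, and hybridisation of one gene's RNA to another's probes was not tested.

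Among the proteins that lie along the actin filament, 10 of 11 fell, with a median difference of -0.47. Cnn1, calponin 1, which restrains actomyosin in smooth muscle, measured 8.42 and 8.55 with thyroxine and in control medium in Twist1+/- female cells at 7 days, 8.19 and 8.92 in Twist1+/- male cells, 7.73 and 8.33 in wild-type female cells and 9.61 and 9.60 in wild-type male cells. At 3 days the same cultures, in the same order, measured 9.69 and 10.12, 9.40 and 9.61, 9.25 and 9.53, and 10.30 and 10.42. Every culture was lower at 7 days in both media, and the groups overlapped only through the wild-type male arrays, whose 7-day values lay among the 3-day values of the other cultures. The fall was 1.12 ± 0.18 (95% interval -1.52 to -0.72, adjusted p = 0.00139), with -1.42 and -0.95 in the Twist1+/- female and male cultures and -1.36 and -0.76 in the wild-type female and male cultures. Tpm2, the beta-tropomyosin, measured 7.10, 7.48 and 8.62 at 7 days and 8.14, 8.41 and 8.89 at 3 days, and fell by 0.79 ± 0.15 (adjusted p = 0.00285), with -1.01 and -0.71 in the Twist1+/- female and male cultures and -1.12 and -0.34 in the wild-type female and male cultures. Tagln, or SM22 alpha, an early smooth muscle marker that binds actin, measured 9.33, 10.06 and 11.05 at 7 days and 10.44, 10.78 and 11.32 at 3 days. It fell by 0.73 ± 0.17 (adjusted p = 0.0101), with -0.87 and -0.58 in the Twist1+/- female and male cultures and -1.03 and -0.44 in the wild-type female and male cultures. Both genes overlapped between the days, with the wild-type male arrays highest on each day.

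Lmod1, leiomodin 1, which nucleates actin filaments in smooth muscle, fell by 0.66 ± 0.11, with -0.93 and -0.88 in the Twist1+/- female and male cultures and -0.70 and -0.14 in the wild-type female and male cultures. Tpm1, the alpha-tropomyosin, fell by 0.63 ± 0.09, with -0.82 and -0.77 in the Twist1+/- female and male cultures and -0.68 and -0.28 in the wild-type female and male cultures. The wild-type male culture thus had the smallest fall of both. Cald1, caldesmon, which blocks myosin from actin in relaxed smooth muscle, measured 9.46, 9.55 and 9.96 at 7 days and 10.01, 10.07 and 10.19 at 3 days, so that every 7-day array lay below every 3-day array. It fell by 0.47 ± 0.07 (adjusted p = 0.000822), with -0.55 and -0.58 in the Twist1+/- female and male cultures and -0.57 and -0.21 in the wild-type female and male cultures. Smtn, smoothelin, a marker of contractile smooth muscle, fell by 0.43 ± 0.08, with -0.79 and -0.42 in the Twist1+/- female and male cultures and -0.37 and -0.16 in the wild-type female and male cultures. It was lower at 7 days in every culture, least so in the wild-type male one. The calponins of wider distribution, Cnn2 and Cnn3, fell by 0.41 ± 0.08 and 0.25 ± 0.06, and Tpm4, a tropomyosin of nonmuscle cells, by 0.27 ± 0.08. Tpm4 too passed in only 6 of the 16 fits that each left out 1 array. Tagln2, the transgelin of nonmuscle cells, did not pass the test (-0.02 ± 0.08, adjusted p = 0.888).

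**Figure D1:**
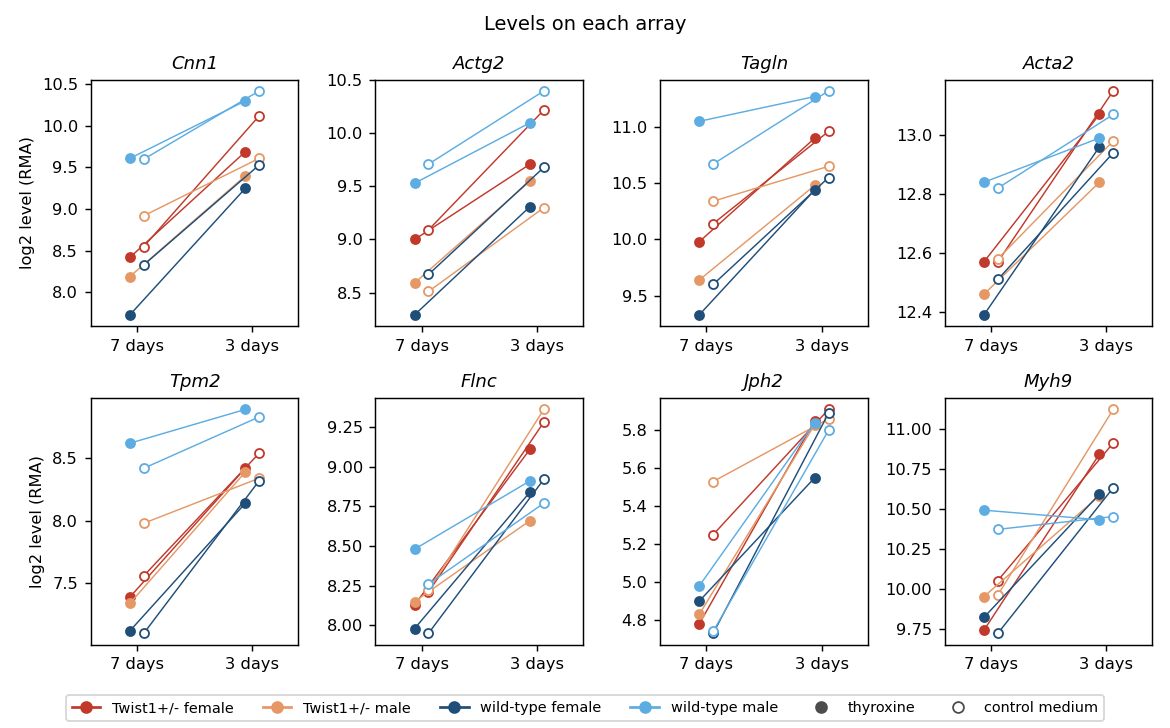
Log2 RMA level of 8 members on each of the 16 arrays, with 7 days at the left and 3 days at the right of each panel; a line joins the arrays of a culture and medium, filled points are thyroxine and open points control medium. Cnn1 ran from 7.73 to 9.61 at 7 days and from 9.25 to 10.42 at 3 days, and the wild-type male arrays of Myh9 (light blue) are flat while the others slope.

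Of the 5 genes of myosin and its activation, 4 fell. Myh9, the heavy chain of nonmuscle myosin IIA, measured 9.72, 9.96 and 10.49 at 7 days, against 10.43, 10.61 and 11.12 at 3 days, and fell by 0.68 ± 0.11 (adjusted p = 0.0011). Its differences were -0.98 and -0.90 in the Twist1+/- female and male cultures and -0.84 and -0.01 in the wild-type female and male cultures, with hardly any difference in the wild-type male culture. Myh10, the heavy chain of nonmuscle myosin IIB, measured 6.23, 6.67 and 7.04 at 7 days, against 6.69, 7.57 and 7.88 at 3 days. Myh10 fell by 0.71 ± 0.15 (adjusted p = 0.00569), with -1.14 and -0.72 in the Twist1+/- female and male cultures and -1.04 and 0.06 in the wild-type female and male cultures, and was not lower in the wild-type male culture. Myl9, the regulatory light chain of smooth muscle and nonmuscle myosin, fell by 0.55 ± 0.09, with -0.88 and -0.52 in the Twist1+/- female and male cultures and -0.54 and -0.27 in the wild-type female and male cultures. Myh11, the smooth muscle myosin heavy chain and a specific marker of the mature cell, measured 4.79, 5.08 and 5.38 at 7 days and 5.31, 5.35 and 5.94 at 3 days. Its levels were in the lower part of the array's range and overlapped between the days, and it fell by 0.35 ± 0.08 (adjusted p = 0.0107), with -0.30 and -0.47 in the Twist1+/- female and male cultures and -0.28 and -0.35 in the wild-type female and male cultures. Mylk, the myosin light chain kinase, differed by 0.18 ± 0.12 (95% interval -0.07 to 0.43) and did not pass (adjusted p = 0.323), with mean differences of 0.37, 0.04, 0.28 and 0.05 in the cultures in the same order.

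Among 10 crosslinkers and scaffolds 7 fell, with a median difference of -0.44. Jph2, junctophilin 2, which holds the sarcoplasmic reticulum to the plasma membrane of muscle cells, measured 4.73, 4.87 and 5.53 at 7 days and 5.55, 5.85 and 5.91 at 3 days. The days did not overlap, although the 2 Twist1+/- control arrays, at 5.25 and 5.53, were the highest of 7 days. Jph2 fell by 0.85 ± 0.07 (95% interval -1.002 to -0.695, adjusted p = 0.000153), with -0.87 and -0.67 in the Twist1+/- female and male cultures and -0.91 and -0.96 in the wild-type female and male cultures, and so was among the few members whose fall was not smallest in the wild-type male culture. Flnc, the filamin of muscle, measured 7.95, 8.18 and 8.48 at 7 days and 8.66, 8.92 and 9.36 at 3 days, again with no overlap. It fell by 0.81 ± 0.09 (adjusted p = 0.000316), with -1.03 and -0.83 in the Twist1+/- female and male cultures and -0.92 and -0.47 in the wild-type female and male cultures. Its widely expressed relative Flna fell by 0.54 ± 0.10, with -0.69 and -0.61 in the Twist1+/- female and male cultures and -0.70 and -0.18 in the wild-type female and male cultures. The nonmuscle alpha-actinins bundle actin in stress fibres. Actn1 fell by 0.59 ± 0.08, with -0.87 and -0.61 in the Twist1+/- female and male cultures and -0.60 and -0.27 in the wild-type female and male cultures. Actn4 fell by 0.47 ± 0.08, with -0.67 and -0.60 in the Twist1+/- female and male cultures and -0.47 and -0.14 in the wild-type female and male cultures. Both were lower at 7 days in all 4 cultures. Pdlim5 and Csrp1, LIM proteins that bind alpha-actinin, fell by 0.42 ± 0.10 and 0.27 ± 0.09, with Csrp1 close to the threshold (adjusted p = 0.0469) and passing in 2 of the 16 fits that each left out 1 array. Des, the intermediate filament protein desmin, Synpo2, an actin bundling protein of muscle, and Pdlim7 did not pass, with -0.11 ± 0.10, -0.11 ± 0.09 and -0.11 ± 0.07.

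At focal adhesions 4 of 5 members fell. Vcl, vinculin, which strengthens the link of talin to actin under load, measured 9.88, 10.03 and 10.41 at 7 days and 10.28, 10.61 and 10.80 at 3 days, and fell by 0.50 ± 0.09 (adjusted p = 0.00198), with -0.70 and -0.48 in the Twist1+/- female and male cultures and -0.60 and -0.24 in the wild-type female and male cultures. Zyx, zyxin, which gathers at strained stress fibres, measured 9.55, 9.80 and 10.08 at 7 days and 10.09, 10.23 and 10.49 at 3 days. All 7-day values of Zyx lay below all 3-day values, by a narrow gap, and the fall was 0.46 ± 0.08 (adjusted p = 0.00237), with -0.60 and -0.49 in the Twist1+/- female and male cultures and -0.60 and -0.16 in the wild-type female and male cultures. Tln1, talin 1, which activates integrins, fell by 0.40 ± 0.07, and Parva, alpha-parvin, a partner of integrin-linked kinase, by 0.35 ± 0.07. Pgm5, an enzymatically silent relative of phosphoglucomutase found at adherens junctions of muscle, did not pass (0.12 ± 0.18, 95% interval -0.28 to 0.51).

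Of the 3 regulators only Amot passed. Amot, angiomotin, which binds actin and holds YAP in the cytoplasm, measured 6.55, 6.98 and 7.42 at 7 days and 7.23, 7.70 and 8.19 at 3 days, and fell by 0.74 ± 0.12 (adjusted p = 0.00126), with -0.90 and -0.50 in the Twist1+/- female and male cultures and -0.83 and -0.75 in the wild-type female and male cultures. Srf measured 7.51, 7.64 and 8.12 at 7 days and 7.67, 7.84 and 8.23 at 3 days. Its difference of -0.19 ± 0.08 did not pass (adjusted p = 0.145), although its sign was the same in all 4 cultures, with -0.34 and -0.15 in the Twist1+/- female and male cultures and -0.11 and -0.15 in the wild-type female and male cultures. Myocd, the SRF cofactor of smooth and cardiac muscle, measured 3.90, 4.28 and 4.50 at 7 days and 4.02, 4.22 and 4.52 at 3 days. Both ranges lay near the filter's level, and the difference was -0.01 ± 0.11 (95% interval -0.24 to 0.22), with -0.19 and -0.14 in the Twist1+/- female and male cultures and 0.22 and 0.09 in the wild-type female and male cultures.

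**Figure D2:**
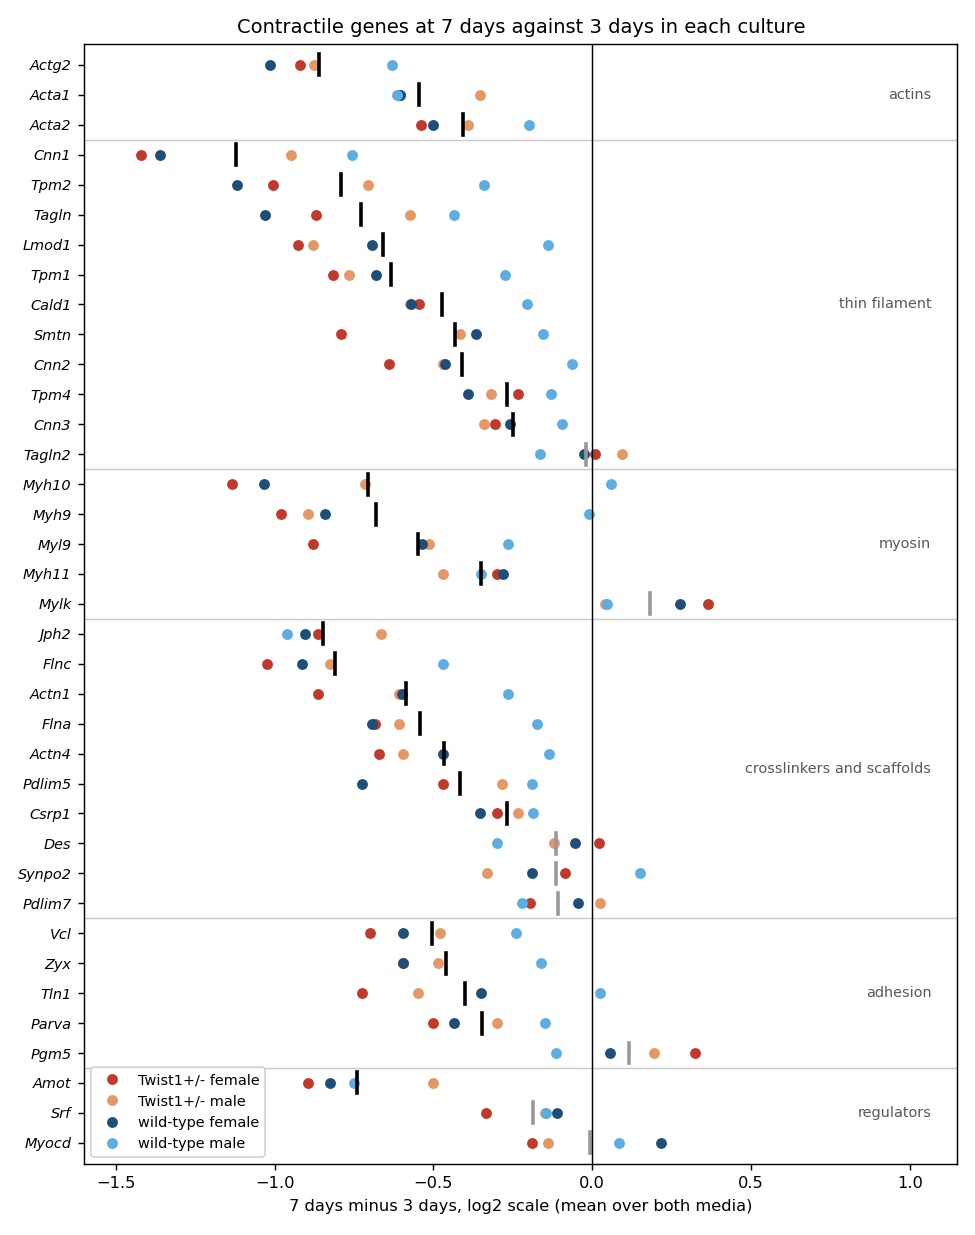
Difference of 7 days minus 3 days for each of the 37 members by role, on the log2 scale, as the mean of both media; points are the 4 cultures and bars the fitted difference, black where the adjusted p was under 0.05 and grey where it was not. The wild-type male points (light blue) lie nearest to 0 for 25 of the 29 members that fell.

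A pair of counts describes how the falls were spread over the arrays. Cald1, Flnc, Jph2 and Zyx were the 4 of 37 members for which all 8 arrays at 7 days lay below all 8 at 3 days, as 0.505% of all tested genes did. For 24 of 37 members the 7-day array was the lower in each of the 8 comparisons within a culture and medium, as for 5.75% of all tested genes. The median difference of the members was -0.64 in the Twist1+/- female culture, -0.48 in the Twist1+/- male culture, -0.54 in the wild-type female culture and -0.19 in the wild-type male culture, while the medians of all tested genes lay between -0.05 and 0.01. Of the 29 members that fell, 25 fell less in the wild-type male culture than in each other culture, and Acta1, Myh11, Jph2 and Amot were the exceptions. The same held for 69.8% of all genes that fell. Mean levels of the wild-type male culture lay above those of all 3 other cultures for 27 of 37 members at 7 days, as for 30.5% of all tested genes, and for 17 at 3 days, as for 31.8%. Without that culture, which leaves 1 array in each wild-type group, the members' median was -0.55 and 33 of 37 were lower at 7 days.

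Within genotypes, 24 members fell in Twist1+/- cells (5.4% of all tested genes) and 0 rose (9.24%), with a median of -0.56. In wild-type cells 1 member fell (0.0595% of all tested genes), with a median of -0.38: Jph2, by 0.93 ± 0.10 (adjusted p = 0.00274). This count rests on how the cultures enter the fit. Over all tested genes 15 were called in either direction in wild-type cells with all arrays, and 0 to 1623 under the alternatives. With the culture as a fixed replicate block 16 members fell in wild-type cells. Without the wild-type male culture, which leaves 1 array in each wild-type group, the members' median in wild-type cells was -0.535, with Cnn1 at -1.36 ± 0.17. Without the 7-day thyroxine array of that culture alone the count was 16, and without the 3-day thyroxine array of Twist1+/- female or male cells or the 3-day control array of wild-type male cells it was 2. In Twist1+/- cells the count was 2 without the control arrays of 7 days, 13 without the female thyroxine array of 3 days and 15 without the male thyroxine array of 7 days. Without those control arrays the members' median in Twist1+/- cells was -0.58 and 34 of 37 were lower, so that calls were lost and the size was not. The difference between genotypes itself was called for 0 members and 0.0% of all genes (limma), and 3 members had an unadjusted p under 0.05, as did 8.73% of all genes. Those were Tln1 at -0.48 ± 0.14, Myh9 at -0.51 ± 0.21 and Lmod1 at -0.49 ± 0.21, each with an adjusted p of 0.559 or above. Without the wild-type male culture they were -0.29 ± 0.14, -0.10 ± 0.16 and -0.21 ± 0.17, and the members' median difference between genotypes was 0.005, against -0.128 with it.

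Genes around the contractile apparatus were counted in the same way, with the same shares of all tested genes, 8.69% that fell and 9.84% that rose. Of 16 genes of the YAP and TEAD pathway, which reads tension in the actin cytoskeleton, 9 fell and 0 rose (median -0.33). Ajuba, a LIM protein that restrains the Hippo kinases, fell by 0.55 ± 0.09, Tead4, a DNA-binding partner of YAP, by 0.54 ± 0.12, Axl, a receptor tyrosine kinase, by 0.47 ± 0.10 and Amotl2, a relative of angiomotin, by 0.45 ± 0.07. The textbook targets Ccn1 and Ccn2 did not pass, with adjusted p of 0.0845 and 0.407. Of 26 integrins and adhesion partners 9 fell and 1 rose (median -0.19). Fermt2, kindlin 2, which activates integrins together with talin, fell by 0.77 ± 0.08, and the fibronectin receptor chains Itga5 and Itgb1 by 0.61 ± 0.12 and 0.51 ± 0.09. Parvg, the parvin of blood cells, rose by 0.84 ± 0.14.

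Other lists had few calls, to be read beside the 8.69% of all tested genes that fell and the 9.84% that rose. Of 14 SRF cofactors and immediate early SRF targets 1 fell and 2 rose (median 0.07). Fhl2, a LIM cofactor, fell by 0.41 ± 0.11, while the early response genes Egr2 and Fosb rose by 0.38 ± 0.11 and 0.32 ± 0.10. Among 12 cytoskeletal actins, light chains and related genes 1 fell and 2 rose (median -0.11). Cotl1, an actin-binding protein abundant in blood cells, rose by 0.64 ± 0.10 and the light chain Myl12b by 0.31 ± 0.09. The light chain Myl12a fell by 1.01 ± 0.15, and its mean was 7.42 in the 7-day Twist1+/- control arrays, against 9.71 to 9.93 in the other 7-day groups. The cytoplasmic actins Actb and Actg1, chosen after their values were seen, did not pass, with adjusted p of 0.254 and 0.0884.

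Markers of another cell type moved over the same days. Of 12 macrophage and osteoclast markers 10 rose and 0 fell, with a median of 1.10. Cd68 rose by 1.54 ± 0.21, Tyrobp by 1.49 ± 0.23, Adgre1 by 1.39 ± 0.19 and Fcer1g by 1.16 ± 0.18, while the osteoclast genes Acp5 and Ctsk did not pass. The mean log2 level of the list ran from 9.26 to 9.51 over the 7-day arrays, against 7.74 to 9.33 over the 3-day arrays. In the wild-type male culture it was 9.42 at 7 days and 9.32 at 3 days, in the wild-type female culture 9.34 at 7 days and 8.11 at 3 days, and in Twist1+/- cells 9.35 at 7 days and 8.10 at 3 days. The culture in which this list differed least between the days was thus also the one in which most members fell least. The part of these cells in the members' falls was not tested. Of 8 suture mesenchyme markers tested 1 fell, Alpl by 0.40 ± 0.13, and the median was -0.15. Of 6 vascular mural cell markers 1 fell, Cspg4 by 0.42 ± 0.09, and of 8 skeletal muscle and 3 endothelial markers none passed.

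**Figure D3:**
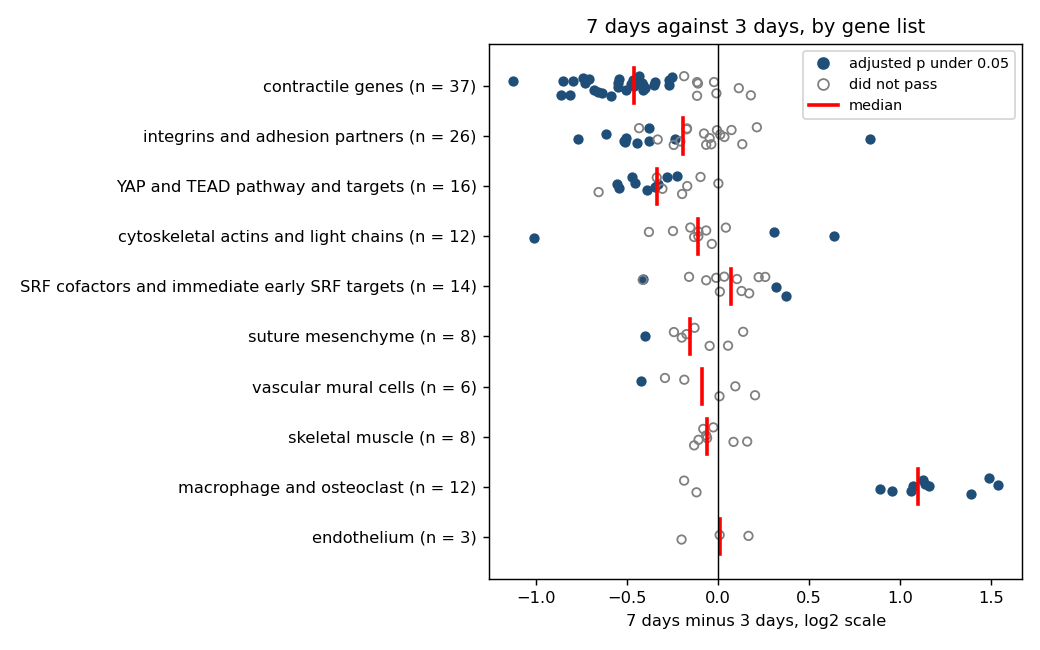
Difference of 7 days minus 3 days on the log2 scale for each tested gene of the contractile list and of the other lists reported; filled points had an adjusted p under 0.05, open points did not, and red bars are medians. The contractile genes have a median of -0.46 and the macrophage and osteoclast markers one of 1.10.

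The next comparison asked what thyroxine did to the contractile genes within a culture and day. No member passed in either direction over the 8 pairs of a thyroxine and a control array (limma, 0 of 37 called, against 0.0966% of all tested genes), and 4 had an unadjusted p under 0.05, as did 6.13% of all genes. The median difference of the members was -0.06, against -0.02 for all tested genes. With thyroxine 30 of 37 members were lower and 7 higher, where 41.4% of all tested genes were higher. In wild-type cells alone 19 of 37 members were higher, against 49.9% of all tested genes. In the wild-type male pair of 7 days 9 of 37 members were lower, against 45.8% of all tested genes. The 5 members with the smallest p were Pgm5, Cnn1, Actg2, Acta1 and Tagln. Since they were chosen by p, the counts of their pairs below are descriptions.

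Pgm5 had 3.35, 4.63 and 5.22 with thyroxine (lowest, median and highest of 8 arrays), against 3.16, 3.77 and 4.03 in control medium. Thyroxine minus control was 1.06 and 0.51 at 7 and 3 days in the Twist1+/- female culture, 0.79 and 0.58 in the Twist1+/- male culture, 1.81 and 0.94 in the wild-type female culture, and 0.11 and 0.50 in the wild-type male culture. Pgm5 was higher with thyroxine in 8 of 8 pairs, as were 0.364% of all tested genes, and no member was lower in all 8, as 0.357% of all tested genes were. Its mean difference of 0.79 ± 0.15 did not pass (95% interval 0.47 to 1.11, adjusted p = 0.0932). The median of its control arrays, 3.77, lay below the filter's level of 3.905. Its mean over all arrays, 4.03, passed the filter only through the thyroxine arrays. The count of pairs and the fits of Pgm5 thus come from a gene that the filter let in through its high group. The size depended on the wild-type male culture, whose 7-day pair had the smallest difference. Without that culture, which leaves 1 array in each wild-type group, the difference was 1.06 ± 0.11. Without its 7-day pair alone it was 1.00 ± 0.11. The difference was 0.74 ± 0.21 in Twist1+/- cells and 0.84 ± 0.21 in wild-type cells, and the difference between genotypes was -0.11 ± 0.30 (95% interval -0.75 to 0.54).

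Cnn1 was lower with thyroxine in 7 of 8 pairs. Its differences were -0.13 and -0.43 at 7 and 3 days in the Twist1+/- female culture, -0.73 and -0.21 in the Twist1+/- male culture, -0.60 and -0.28 in the wild-type female culture, and 0.01 and -0.12 in the wild-type male culture. Their mean was -0.31 ± 0.08 (95% interval -0.48 to -0.15, adjusted p = 0.362), which did not pass over all genes. Actg2 was lower in 6 of 8 pairs, with a mean of -0.19 ± 0.07 (adjusted p = 0.764), and the Twist1+/- male pairs were those that went the other way. The 3-day pair of that culture, at 0.25, was the highest of Actg2, so leaving it out lowers the mean. The mean was then -0.28 ± 0.05, with 1 Twist1+/- pair left at 3 days. Acta1 and Tagln were each lower in 7 of 8 pairs, with means of -0.24 ± 0.09 and -0.14 ± 0.07, and the exception of both was the wild-type male pair of 7 days, at 0.48 and 0.38.

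**Figure D4:**
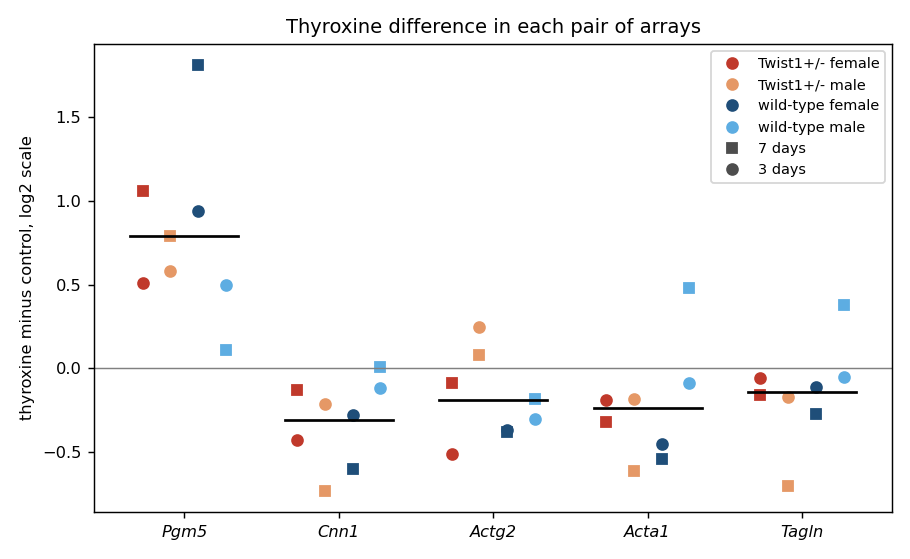
Thyroxine minus control on the log2 scale in each of the 8 pairs for the 5 members with the smallest p; squares are 7 days, circles 3 days, colours the cultures and bars the means. All 8 points of Pgm5 lie above 0, from 0.11 to 1.81, and 7 of 8 points of Cnn1 lie below 0.

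By genotype and day the thyroxine comparisons called 0 members as well (limma). In Twist1+/- cells the background was 0.201% of all tested genes, the members' median was -0.09, and 14 members had an unadjusted p under 0.05 (10.4% of all genes). Without the 3-day pair of Twist1+/- female cells, which leaves 1 pair of that day there, the members' median was -0.12, with 26 lower and 11 higher. Flna, Flnc and Myh9 were then at -0.39 ± 0.09, -0.39 ± 0.08 and -0.35 ± 0.07. None of these genes passed with all pairs. In wild-type cells the background was 0.0149%, the median 0.00, and 3 members had an unadjusted p under 0.05 (5.59% of all genes). At 3 days the background was 0.0%, and 6 members had an unadjusted p under 0.05 (3.05% of all genes). At 7 days it was 0.156%, with 4 such members (8.92% of all genes). The difference of the thyroxine effect between genotypes was called for 0.0595% of genes and for 0 members, with Myh10 at -0.42 ± 0.13 having the smallest p among them (adjusted p = 0.403), and 7 members had an unadjusted p under 0.05 (9.53% of all genes). Without the 3-day pair of Twist1+/- female cells this difference was 0.43 ± 0.10 for Actg2 and -0.47 ± 0.11 for Flnc, and neither gene passed with all pairs. The difference between days was called for 0.00743% of genes and for 0 members, of which 4 had an unadjusted p under 0.05 (5.38% of all genes). In each of the other pathway and marker lists reported 0 genes were called for thyroxine over all pairs.

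The last comparison set cells labelled Twist1+/- against wild-type cells, over both media and days. No member passed (limma, 0 of 37 called, against 0.0% of all tested genes), and 2 members had an unadjusted p under 0.05, as did 4.6% of all tested genes. The members' median was -0.06, with 24 of 37 lower in Twist1+/- cells, against 0.02 for all tested genes. Without the wild-type male culture the direction turned, with a median of 0.14 and 29 of 37 members higher in Twist1+/- cells. Tagln2 averaged 9.05 ± 0.12 in Twist1+/- cells against 9.36 ± 0.35 in wild-type cells (SD, n = 8 arrays of 2 cultures each), a difference of -0.31 ± 0.11 (adjusted p = 0.937). The lower level lay in the male cells, at -0.57 on average, while female cells differed by -0.05. Synpo2 averaged 4.50 ± 0.22 in Twist1+/- cells against 4.17 ± 0.17 in wild-type cells, and so differed by 0.33 ± 0.12. Jph2, Pgm5 and Cnn3 followed in the order of p, with 0.18 ± 0.10, 0.43 ± 0.26 and 0.13 ± 0.09. The sign of Pgm5 turned without the wild-type male culture (-0.12), its difference being -0.12 in female and 0.98 in male cells on average. Jph2 was -0.02 without the 7-day Twist1+/- control arrays, and without the wild-type male culture Cnn3 was 0.01. At 7 days and at 3 days alone 0 members were called too, against 0.0% of all genes each time. At an unadjusted p under 0.05 there was 1 member at 7 days (7.35% of all genes) and 2 at 3 days (5.2% of all genes).

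The genotype values were read in each sex too, with 1 culture behind each genotype and sex, and the difference between the sexes was not tested. At 7 days 25 of 37 members were higher in Twist1+/- than in wild-type female cells, with a median difference of 0.12, and 29 of 37 were lower in Twist1+/- than in wild-type male cells, with a median of -0.39. At 3 days the medians were 0.18 in female and -0.12 in male cells. For 9 members the sign was positive in all 4 female and negative in all 4 male comparisons of a day and medium, as for 2.95% of all tested genes, and opposite signs of either kind were found for 7.08%. For Cnn1 the difference over 4 matched comparisons averaged 0.49 in female cells, with a range of 0.22 to 0.69, and -0.95 in male cells, with a range of -1.42 to -0.68. With the male culture left out, only the female culture stood for the wild type, with 1 array in each group. Actg2, Tagln and Amot were then higher in Twist1+/- cells, by 0.52 ± 0.11, 0.52 ± 0.10 and 0.49 ± 0.10. These values restate the averages over the female comparisons, 0.518, 0.515 and 0.485, since only female arrays then stood for the wild type. A fit with 1 wild-type culture cannot separate genotype from culture, so no call from it is read as a difference between genotypes. Sex, genotype and culture cannot be told apart in these values.

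**Figure D5:**
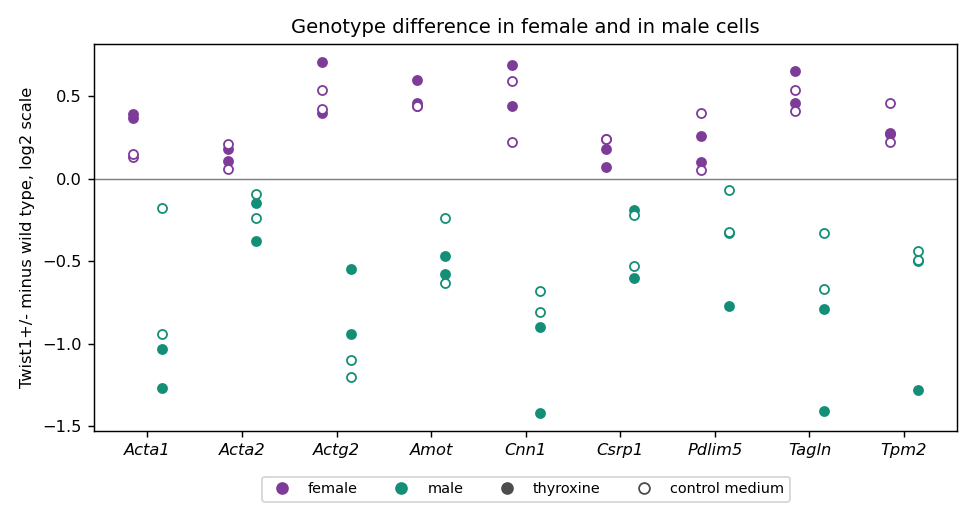
Twist1+/- minus wild type on the log2 scale for the 9 members whose sign was opposite in female (purple) and male (green) cells in all comparisons; each point is one day and medium, filled for thyroxine and open for control medium. Female differences of Cnn1 run from 0.22 to 0.69 and male ones from -1.42 to -0.68.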

How the data were processed

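The authors deposited log2 expression values per probe set, and per the submitters' processing notes RMA was run in Affymetrix Expression Console. This method gives all arrays the same distribution, so a shift shared by all genes cannot be seen, and dim values are compressed. Versions of software and annotation are not stated in the sources used here. Of 41345 probe sets, 23521 were annotated with 1 gene symbol, 1814 with several and 16010 with none, and 23328 of the named ones were matched through Entrez identifiers, with 0 symbols changed. The brightest probe set stood for a gene, and a gene was tested where its mean reached 3.905, which is percentile 40 over the named probe sets.

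Differences were tested two-sided with limma 3.58.1 (R 4.3.3, statmod 1.5.0) with an intensity trend, and p-values were adjusted by Benjamini-Hochberg over 13453 genes at 0.05. Day and genotype were fitted as 8 group means plus sex and a random block for the culture (within-culture correlation 0.202, 7 residual and 5.11 prior degrees of freedom). For thyroxine the 8 pairs of a culture and day were fixed blocks (4 residual and 9.30 prior degrees of freedom), because the labels place both media of a sample on a plate. Male minus female differences correlated between the thyroxine and control arrays at 0.393 and 0.119 at 7 and 3 days in Twist1+/- cells and at 0.721 and 0.771 in wild-type cells. With 1 culture for each genotype and sex, the p-values do not hold the spread among animals, and the number of arrays limits the precision. The fits were also run on simulated data in which no culture stood apart, so those runs do not cover the wild-type male culture.

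The members, gene lists, naming rule and alternatives were chosen with earlier results of these data known. Named were the members past the threshold or, for thyroxine and genotype, the 5 with the smallest p, and up to 4 genes of each other list past the threshold for day, by size. Of the pathway lists, 1 is not reported here. Promoter sequences are those of RefSeq.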

Additional observations from a re-analysis of the deposited data

Results flagged for a closer look

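For 9 of the 37 members the difference of Twist1+/- minus wild type had one sign in all 4 comparisons of female cells and the opposite sign in all 4 comparisons of male cells, a comparison being one day and medium. The same held for 7.08% of all tested genes, and 2.95% were, like these 9, higher in Twist1+/- female cells and lower in Twist1+/- male cells. The mean differences in female and male cells were 0.26 and -0.855 for Acta1, 0.14 and -0.215 for Acta2, and 0.518 and -0.948 for Actg2. Among thin filament genes they were 0.485 and -0.952 for Cnn1, 0.515 and -0.80 for Tagln, and 0.308 and -0.678 for Tpm2. The LIM genes Pdlim5 and Csrp1 had 0.202 and -0.372, and 0.182 and -0.385, and Amot had 0.485 and -0.48. The difference between the sexes was not tested, since each sex of a genotype is 1 culture. The mean log2 level of the suture mesenchyme markers in wild-type male cells was 8.18 at 7 days and 8.18 at 3 days, against 9.03 and 9.22 in wild-type female cells, and their part in the result was not tested.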

How the results depend on the processing

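Of the 29 members that fell by day, 29 kept their sign in every alternative and 25 passed in all 16 fits that left out an array, the others being Acta1 and Tpm4 (6 of 16 each), Csrp1 (2 of 16) and Cnn3 (15 of 16). Without one array at a time the day comparison called 26 to 29 members, day in Twist1+/- cells 13 to 26 and day in wild-type cells 1 to 16, where 16 came without the wild-type male thyroxine array of 7 days. Without one pair at a time the thyroxine comparison called 0 to 1, thyroxine in Twist1+/- cells 0 to 3, at 7 days 0 to 1 and by genotype 0 to 2, and the other comparisons 0 to 0. On control arrays only, day called 10, in Twist1+/- cells 3 and in wild-type cells 0 members, and on thyroxine arrays only, added after seeing the data, 0, 0 and 0, with 8 arrays in place of 16 and a median for day of -0.45, with 35 of 37 members lower. Without the 7-day Twist1+/- control arrays, also added afterwards, day called 25 and day in Twist1+/- cells 2. With culture as a fixed replicate block the counts were 30, 28 in Twist1+/- and 16 in wild-type cells, and with no replicate block 25, 18 and 1. A filter at the 60th percentile gave 2 in wild-type cells. Leaving out the wild-type male culture leaves 1 array in each wild-type group, so genotype and culture cannot be separated there. Counts for that setting are listed for completeness only and are not read as results. Without the wild-type male culture, where the culture is part of the design, day in wild-type cells called 23, genotype 3, genotype at 7 days 1 (Tagln, 0.67), thyroxine 1 and thyroxine at 7 days 1 (both Pgm5). Over all genes the counts were 2493 for day (0 to 3509 under the alternatives), 1969 in Twist1+/- cells (0 to 3017), 15 in wild-type cells (0 to 1623), 0 for day by genotype (0 to 8), 0 for genotype (0 to 310) and 13 for thyroxine (0 to 29). Signs turned among members that did not pass: by day, Tagln2 was 0.014 without the wild-type male culture, 0.0 on thyroxine arrays and 0.028 without the 7-day Twist1+/- control arrays (-0.076 to 0.034 without one array), Myocd 0.025 without the wild-type male culture and 0.025 on control arrays (-0.07 to 0.055), Pgm5 -0.04 on control arrays (-0.069 to 0.299), Des 0.072 on control arrays and Mylk -0.092 on thyroxine arrays (0.18 over all arrays); by genotype, Jph2 was -0.021 without the 7-day Twist1+/- control arrays (0.18 with them) and Pgm5 -0.12 without the wild-type male culture (0.43 with it). The causes were not tested. Levels near the filter, as for Myocd, Des, Synpo2, Mylk and Pgm5, limit what a small difference can show.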

Other observations

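Tagln2, Tpm4 and Smtn had a second probe set with the same single symbol. For Tagln2 the brighter probe set, with a mean of 9.20, differed by -0.02 between 7 and 3 days, and the dimmer one, with a mean of 7.26, by -0.25. For Tpm4 the brighter and dimmer probe sets differed by -0.27 and -0.42, and for Smtn by -0.43 and -0.23, so the sign was the same in each pair. These values are descriptions, and only the brighter probe sets were tested.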
